A study of Rattus norvegicus with 27 samples.

Results

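The genes described here are the rat zinc finger genes whose symbol is Zfp followed by a number, measured in the medial prefrontal cortex (mPFC). Members were selected on a measured value, a mean raw count of at least 10 reads over the 27 libraries, and 150 of the 280 Zfp rows in the count table passed. The whole table holds 36865 rows, of which 11730 reached the same mean. Tissue came from 27 adult male Wistar rats, an outbred laboratory strain, sampled at rest after the study's series of anxiety tests. By the labels all rats form 1 group and each library is 1 rat, so there is no control group and no replicate library of a rat. The study's methods describe more than 1 cohort of male Wistar rats, and the labels do not say which cohort a library came from. The labels give learned helplessness as the treatment, whereas the study's methods describe repeated anxiety tests. The behavioural scores of single rats were not used here. Zfp26 is the only member that appears in the study's lists of genes associated with behaviour, and it is therefore set against the other members.

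Zinc finger proteins of the C2H2 type fold short loops around a zinc ion, and arrays of such fingers read DNA sequence. Many members also carry a KRAB domain, which recruits the corepressor Trim28 (KAP1) and, through it, the histone methyltransferase Setdb1 that lays down the heterochromatin mark H3K9me3. A few genes that bear the Zfp symbol act outside transcription. Zfp36 (tristetraprolin) destabilizes messenger RNAs with AU-rich elements, Zfp598 is a ubiquitin ligase that senses collided ribosomes, and Zfp622 acts in the maturation of the large ribosomal subunit. KRAB zinc finger genes often lie in tandem clusters of related copies, so reads of close paralogs can be hard to assign.

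The libraries held between 4907255 and 12771309 counted reads (median 8168801), and the members together took between 0.454% and 0.559% of them (median 0.512%). Library numbers in the titles split the set into 16 libraries numbered up to 31, with at most 8568317 reads each, and 11 numbered from 32, with at least 9404220. The labels do not call these a batch, the split follows depth, and whether it follows the cohorts was not tested, so the main relations across rats are also given within the blocks or with block means removed. Libraries 3, 12 and 20 stood apart and are named where they matter. Library 3 had the highest oligodendrocyte marker score of all (2.22) and the lowest excitatory neuron score (-1.97), each score being the mean z score of its marker genes. Libraries 12 and 20 held 0.228% and 0.195% reads of Rn18s, the 18S ribosomal RNA, against 0.00994% to 0.0613% in the others. Of the cortical markers, all 8 for excitatory neurons were measured, and 7 of 8 for interneurons.

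Listing at 0 needs care in this table. A total of 128 Zfp rows had no read in any library, but so did Polr2a, the largest subunit of RNA polymerase II, and the neuronal genes Ank2 and Sst, which cortex is known to express. Nothing is therefore said about expression of Zfp rows at 0. Between 0 and the selection limit lay only Zfp7 (mean raw count 6.04) and Zfp474 (0.333), and the members just inside it were Zfp819 (12.3), Zfp93 (15.7) and Zfp217 (16.7). In the RefSeq gene list, 65 of the 150 members overlap another gene, 31 of them a protein-coding gene. Among these 31 are Zfp142 (with Plcd4), Zfp467 (with Sspo), Zfp428 (with Srrm5) and Zfp800, whose correlations are given below. Because the strandedness of the counting is not given in the sources used here, reads of such overlapping pairs cannot be told apart.

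Promoters are printed for the members on which the correlations turn, namely neighbouring genes that include Zfp26, and the pair of members that was most alike. The sequences are RefSeq promoters of the assembly GRCr8, 300 bases long (250 before and 50 after the annotated start), written 5′ to 3′ in the direction of the gene. Capitals mark exact matches, on either strand, to CCGGAAG (the core bound by ETS factors), GGGCGG (the GC box bound by SP1), GCGCATGCG (bound by NRF1) and TGACGTCA (the cAMP response element, CRE). No marked match overlaps another. The promoter of Zfp26 is at chr8:27261600-27261899 (minus strand), that of Zfp426 at chr8:27305008-27305307 (minus strand) and that of Zfp266 at chr8:27337490-27337789 (minus strand). The most alike pair is Zfp575, at chr1:89304985-89305284 (minus strand), and Zfp467, at chr4:78723086-78723385 (minus strand).
Zfp26: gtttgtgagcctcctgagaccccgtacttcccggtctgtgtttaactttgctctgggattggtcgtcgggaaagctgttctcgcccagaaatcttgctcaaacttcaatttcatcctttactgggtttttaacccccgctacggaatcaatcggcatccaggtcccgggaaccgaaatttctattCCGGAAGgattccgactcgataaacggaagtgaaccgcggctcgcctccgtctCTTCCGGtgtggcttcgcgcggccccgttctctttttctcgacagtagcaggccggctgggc
Zfp426: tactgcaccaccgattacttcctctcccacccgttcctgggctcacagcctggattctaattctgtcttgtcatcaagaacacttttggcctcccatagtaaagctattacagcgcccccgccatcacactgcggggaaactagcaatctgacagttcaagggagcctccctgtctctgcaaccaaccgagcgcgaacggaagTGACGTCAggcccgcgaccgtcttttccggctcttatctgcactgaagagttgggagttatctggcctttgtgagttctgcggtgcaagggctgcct
Zfp266: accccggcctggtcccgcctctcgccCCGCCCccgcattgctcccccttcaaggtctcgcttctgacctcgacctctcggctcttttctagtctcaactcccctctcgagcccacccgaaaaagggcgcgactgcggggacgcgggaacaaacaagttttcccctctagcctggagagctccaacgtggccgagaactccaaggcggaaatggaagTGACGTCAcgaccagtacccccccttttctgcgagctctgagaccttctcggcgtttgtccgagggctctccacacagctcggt
Zfp575: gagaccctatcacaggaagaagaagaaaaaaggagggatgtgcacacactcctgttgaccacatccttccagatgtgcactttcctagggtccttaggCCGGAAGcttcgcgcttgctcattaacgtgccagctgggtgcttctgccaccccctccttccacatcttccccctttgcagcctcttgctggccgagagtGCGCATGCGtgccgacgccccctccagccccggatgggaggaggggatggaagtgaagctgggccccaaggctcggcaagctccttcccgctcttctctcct
Zfp467: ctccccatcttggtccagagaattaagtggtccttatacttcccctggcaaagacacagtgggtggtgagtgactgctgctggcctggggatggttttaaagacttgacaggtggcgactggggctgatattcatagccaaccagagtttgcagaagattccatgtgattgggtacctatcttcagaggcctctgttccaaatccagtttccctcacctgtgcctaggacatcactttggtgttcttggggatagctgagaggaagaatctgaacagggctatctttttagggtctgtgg

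Zfp26, Zfp426, Zfp266 and Zfp846 follow each other on chromosome 8 with no other protein-coding gene of the RefSeq list between them. The Zfp26 promoter held the ETS core at bases 186 to 192 and, on the opposite strand, at bases 239 to 245. Both Zfp426 (bases 204 to 211) and Zfp266 (bases 217 to 224) held a complete CRE, which Zfp26 lacked. In Zfp575 the ETS core lay at bases 99 to 105 and the NRF1 core at bases 199 to 207, whereas Zfp467, its closest match in expression, held none of these letters. Over the 125 members with a promoter in the table, the ETS core occurred in 22.4%, the GC box in 48.8%, the NRF1 core in 7.2% and the CRE in 3.2%. The corresponding shares were 17.2%, 62.0%, 3.17% and 3.22% over the 9494 promoters of genes that reached the same mean count, and 9.22%, 34.9%, 1.66% and 1.91% over all 27457 promoters of that length. A further pair of motifs, AAGATGGCG (bound by YY1) and ACTACAATT (bound by ZNF143, the human form of Zfp143), occurred in 5.6% and 2.4% of member promoters, against 3.59% and 0.748% of those of expressed genes. These matches are descriptions of the letters and no test was made of them.

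Members ranged from abundant to barely counted, and most had fewer counts than the typical gene. Counts were divided by the median-of-ratios size factor of each library and are called normalized counts. They are not corrected for transcript length, so the order of genes below is an order of counts and not of molecules. The median member had 166 normalized counts, against 282 over all 11730 genes. The most counted was Zfp180, a KRAB zinc finger gene, at 2194 ± 184 (SD, n = 27), between 1797 and 2497 with a median of 2195. Zfp365, known as the DISC1-binding zinc finger protein, reached 2049 ± 360, between 1193 and 2589 with a median of 2107. Zfp91, a ubiquitin ligase of the NF-kB pathway, reached 2025 ± 118, between 1815 and 2337 with a median of 2034. The ranges of these 3 genes overlap almost entirely, and their order was not tested. Zfp612 (1138 ± 128) and Zfp706 (1097 ± 116) came next, again with overlapping ranges. The lowest members were Zfp819 (11.8 ± 3.23), Zfp93 (14.7 ± 4.64), Zfp217 (16.4 ± 5.59), Zfp772 (18.3 ± 5.03) and Zfp697 (19.6 ± 4.83), and their ranges also overlap. Zfp26 was the 81st of the 150, at 156 ± 24.2 normalized counts, and between 86 and 253 of its reads were counted per library.

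**Figure D1:**
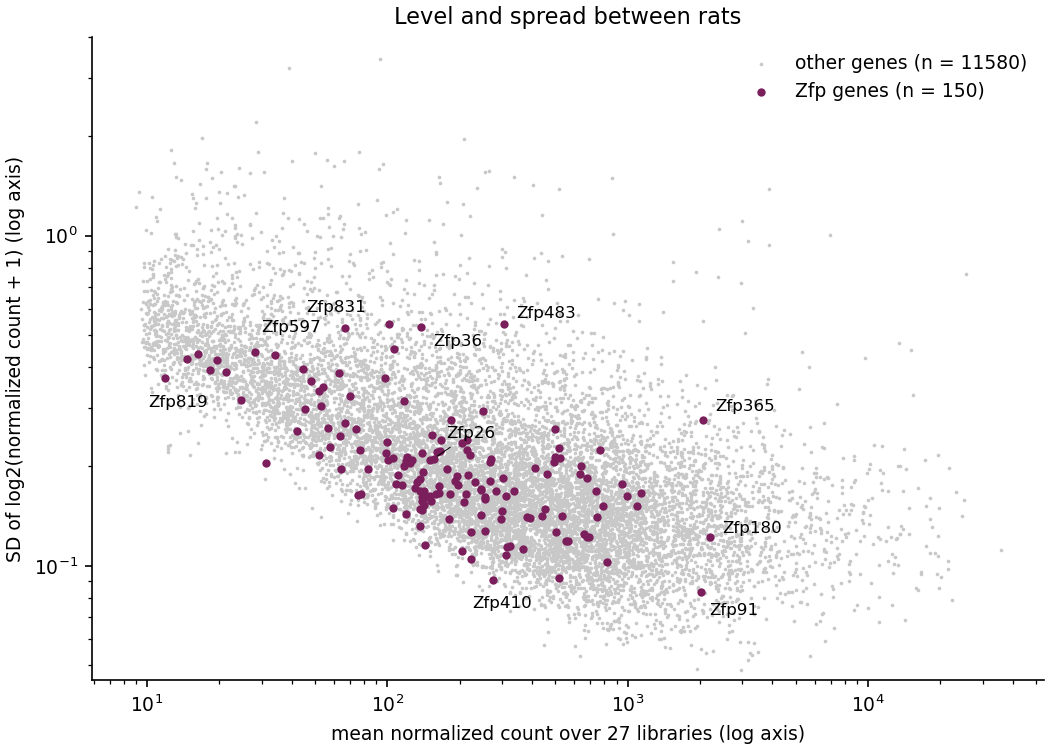
Each point is a gene with a mean raw count of at least 10, with its mean normalized count over 27 libraries (horizontal, log axis) against the SD of its log2 values between rats (vertical, log axis), the 150 Zfp genes in purple and the other genes in grey. The Zfp genes lie inside the cloud of other genes, with a median SD of 0.185 against 0.190 for all genes, and Zfp483, Zfp831, Zfp36 and Zfp597 sit highest among them.

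The typical member varied between rats by about as much as the typical gene. On the scale log2(normalized count + 1), the median SD was 0.185 over members and 0.190 over all genes. A chi-square dispersion test of the counts against Poisson counting, with Benjamini-Hochberg adjustment over all genes, called 128 of 150 members (85.3%) as more variable than counting allows, against a background of 89.8% of 11730 genes. Read counting alone accounted for a larger part of the variance of members (median 36.1%) than of all genes (24.01%), and members also had fewer counts. With the means of the library blocks fitted, 119 members (79.3%) were called, against 87.4% of all genes.

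The largest SD belonged to Zfp483, a gene with a KRAB and a SCAN domain, at 0.54 on the log2 scale. Its normalized counts ran from 102 in library 3 over a median of 305 to 470 in library 12. Zfp831 (SD 0.54), Zfp36 (0.53), Zfp597 (0.53) and Zfp507 (0.45) followed. Apart from Zfp36, each of these was at its lowest in library 3. Without that library the SD was 0.46 for Zfp483, 0.40 for Zfp831, 0.40 for Zfp597 and 0.28 for Zfp507, which then ranked 23rd among members, while Zfp36 was at 0.48 and ranked first. Zfp36 was instead highest in library 3, with 309 normalized counts against a median of 117 over all rats. The smallest SD was that of Zfp91 (0.083), followed by Zfp410 (0.090), a regulator known for its control of the Chd4 gene, Zfp330 (0.092), Zfp260 (0.10) and Zfp868 (0.10). For Zfp410 and Zfp868 counting alone accounts for 94.6% and 89.6% of the variance, and neither passed the dispersion test (adjusted p = 0.328 and 0.294).

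Library 3 was low for many members at once. Of the 150 members, 46 (30.7%) had their lowest value in it, against 19.9% of all genes, and 9 (6.0%) had their highest value there, against 19.8% of all genes. Library 51 held the highest value of 27 members (18%), against 8.58% of all genes. It had the highest striatal neuron score of all libraries (1.81) and the lowest microglia score (-1.33). The high oligodendrocyte score of library 3 and these scores of library 51 stand beside the counts, and their part in them was not tested. In bulk tissue, fewer cells of a type and less RNA per cell cannot be told apart.

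Between the library blocks, members were shifted upward more often than downward. The share of all reads that fell on members was 0.503% ± 0.0183 (SD, n = 16) in the libraries up to 31 and 0.524% ± 0.0169 (n = 11) in those from 32, and the ranges overlapped. With edgeR's quasi-likelihood test and Benjamini-Hochberg adjustment over 11716 genes, 28 of 150 members (18.7%) differed, against a background of 18% of all genes tested. Of these 22 were higher from 32, where the background is 8.85%, and 6 were lower, where it is 9.18%. The number of members called is thus close to that of genes in general, and the median log2 fold change was 0.055 over members and -0.00062 over all genes. DESeq2 called 27 members higher and 7 lower, against 1125 and 1254 of 15078 genes. Among the 45 genes of the related Zbtb, Zscan, Zkscan and Znf groups, a set chosen after the data were seen, 4 were higher and 6 lower, with a median of -0.013. None of the 28 members reversed its direction under any alternative scaling, filter or tool, or with any library left out.

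Zfp574 had the smallest adjusted p of the members. Its normalized counts lay between 422 and 565 (median 458) up to 31, and between 545 and 672 (median 594) from 32, so 10 of the 11 later libraries lay above every earlier one. Its log2 fold change was 0.37 (SE 0.04, edgeR adjusted p = 2.61e-06). Zfp575, also on chromosome 1, rose by the largest amount among members, 0.44 (SE 0.07, edgeR adjusted p = 0.000105). Its range was 168 to 274 (median 224) in the earlier and 255 to 349 (median 300) in the later libraries, with 7 of 11 above all earlier ones. Zfp414 was higher by 0.37 (SE 0.06), Zfp319 by 0.32 (SE 0.11) and Zfp467 by 0.30 (SE 0.08). Of these, Zfp319 lost its call without a filter on low counts and in 16 of 27 fits that left a library out.

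The list of genes with a role in RNA or ribosome biology held 12 measured genes, 9 of them members. Of these 9, 4 fell, against the background of 9.18% for all genes, and 1 rose. The list was chosen with earlier results of these data known. The role of Zfp706, which stands in that list and fell, is not stated here. Zfp207, which also fell, is described below by its binding to microtubules. The share of 4 in 9 is therefore not read as a result about RNA or ribosome genes. Zfp36 fell by 0.58 on the log2 scale (SE 0.18, edgeR adjusted p = 0.0202). It ranged from 87.0 to 309 (median 151) up to 31 and from 69.0 to 155 (median 106) from 32. The blocks overlapped, with 1 of 11 later libraries above the earlier median and 2 below the lowest earlier value. Zfp706 fell by 0.25 (SE 0.04, edgeR adjusted p = 2.89e-05), from a range of 1068 to 1327 (median 1164) to one of 917 to 1076 (median 979), and 10 of 11 later libraries lay below every earlier one. Zfp622, the ribosome maturation factor, fell by 0.26 (SE 0.06) and Zfp207, a microtubule-binding protein of the kinetochore, by 0.19 (SE 0.05). The remaining members that fell were Zfp800 (by 0.55, SE 0.11) and Zfp830 (by 0.22, SE 0.07). Zfp830 lost its call without a filter on low counts, without libraries 12 and 20 and in 11 of 27 fits that left a library out. In the RNA and ribosome list Zfp598 was higher (0.20, SE 0.07), a call lost without libraries 12 and 20 and in 9 of 27 such fits, whereas Zfp91 (log2 fold change 0.0024), Zfp330 (0.012), Zfp593 (0.068) and Zfp638 (-0.11) did not pass. The relatives Zfp36l1 and Zfp36l2, which encode RNA-binding proteins of the same kind but have letters after the number, fell by 0.57 (SE 0.11) and 0.27 (SE 0.08). Zfp385a, the remaining gene of the list, had a log2 fold change of 0.14 (SE 0.08, edgeR adjusted p = 0.223).

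**Figure D2:**
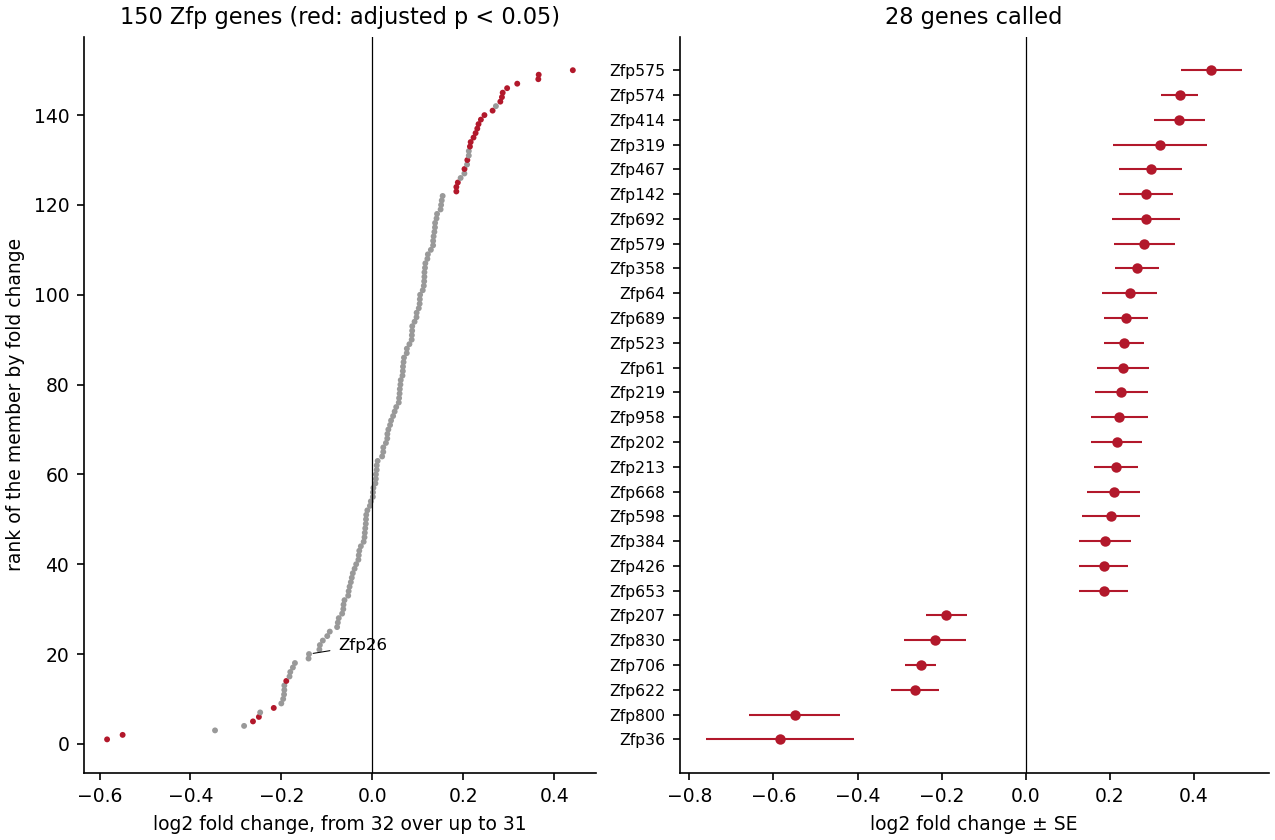
Left, the edgeR log2 fold change (libraries from 32 over libraries up to 31) of each of 150 Zfp genes against its rank, red where the adjusted p is under 0.05. Right, the 28 genes called with their standard errors, 22 to the right of 0 and 6 to the left, from Zfp36 (-0.58) to Zfp575 (0.44).

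In the other role lists few genes were called between the blocks, at shares near the background of 18% in the larger lists. Of the 11 measured regulators that bind promoters, Zfp219 (log2 fold change 0.23, SE 0.06) and Zfp384 (0.19, SE 0.06; lost without libraries 12 and 20) were higher, and 9 did not pass, among them Zfp143, an activator of small nuclear RNA promoters (0.010), and Zfp148 (0.12, edgeR adjusted p = 0.0574). Neither measured keeper of imprints passed. Zfp57 had 118 ± 16.5 normalized counts and a log2 fold change of 0.12 (SE 0.08), and Zfp445 had 745 ± 69.0 and -0.017 (SE 0.05). None of the 4 measured genes of neural and glial development passed, namely Zfp24, known for its role in myelination, Zfp365, Zfp521 and Zfp703 (log2 fold changes -0.12 to 0.060). Of the 27 listed corepressor and heterochromatin genes, 6 were listed at 0 and 21 were tested, of which 2 were higher (Trim28 and Mta1) and 2 lower (Hdac2 and Rbbp7). Without libraries 12 and 20 the list had 1 called higher and 1 lower, without a filter on low counts 2 and 1, and in most fits that left a library out 1 was lower. Trim28 had 1627 ± 77.8 normalized counts and rose by 0.081 (SE 0.03, edgeR adjusted p = 0.0361), and Setdb1 had 718 ± 56.8 and a log2 fold change of 0.046 (SE 0.04, adjusted p = 0.503).

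Of the 9 marker scores, those whose means differed most between the blocks are given beside the block differences. These are excitatory neurons, astrocytes and striatal neurons, and the scores were not tested between blocks. The excitatory neuron score averaged -0.224 ± 0.665 (SD) up to 31, with a range of -1.97 to 0.501, and 0.326 ± 0.272 from 32, with a range of -0.119 to 0.806. Astrocyte markers averaged 0.188 ± 0.595 (range -1.05 to 1.35) and -0.274 ± 0.571 (range -1.11 to 0.874), so the ranges overlapped almost fully. Striatal neuron markers averaged -0.143 ± 0.333 (range -0.538 to 0.613) and 0.209 ± 0.696 (range -0.462 to 1.81). The part of these scores in the block differences of the members was not tested, and depth and block cannot be told apart. With the oligodendrocyte score as a covariate, 22 members were higher and 8 lower, against 1088 and 1435 of 12027 genes.

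Slopes on marker scores, fitted in edgeR with the block as a covariate, called few members. The oligodendrocyte score called 1 member, against 3.3% of 12017 genes. This was Zfp281, a transcription factor of pluripotent cells, which rose by 0.13 on the log2 scale per SD of the score (SE 0.03, edgeR adjusted p = 0.0236) and lost its call without library 3 and without the block. No member was called for the immediate early score by edgeR or DESeq2, against 0.0586% of 11954 genes, and 8 members had an unadjusted p under 0.05. Zfp36, which is itself induced as an immediate early gene, had a log2 slope of 0.13 (SE 0.08) on it. For the meningeal fibroblast score no member was called by either tool, against 2.66% of genes, and 6 had an unadjusted p under 0.05.

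Members did not move as a single module. Over their 11175 pairs the median Spearman's rho was 0.046, 55.9% of pairs were positive, 6.61% exceeded 0.5 and 3.11% were below -0.5. Over the pairs of all 11730 genes the median was -0.0049, 49.3% were positive, and 4.52% and 3.81% passed the same limits. For the 45 related zinc finger genes the median was 0.032. After block means were removed the members' median was 0.035, and it was 0.035 within the libraries up to 31 and 0.036 within those from 32. Pairs share libraries and genes, so these are descriptions without a test.

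**Figure D3:**
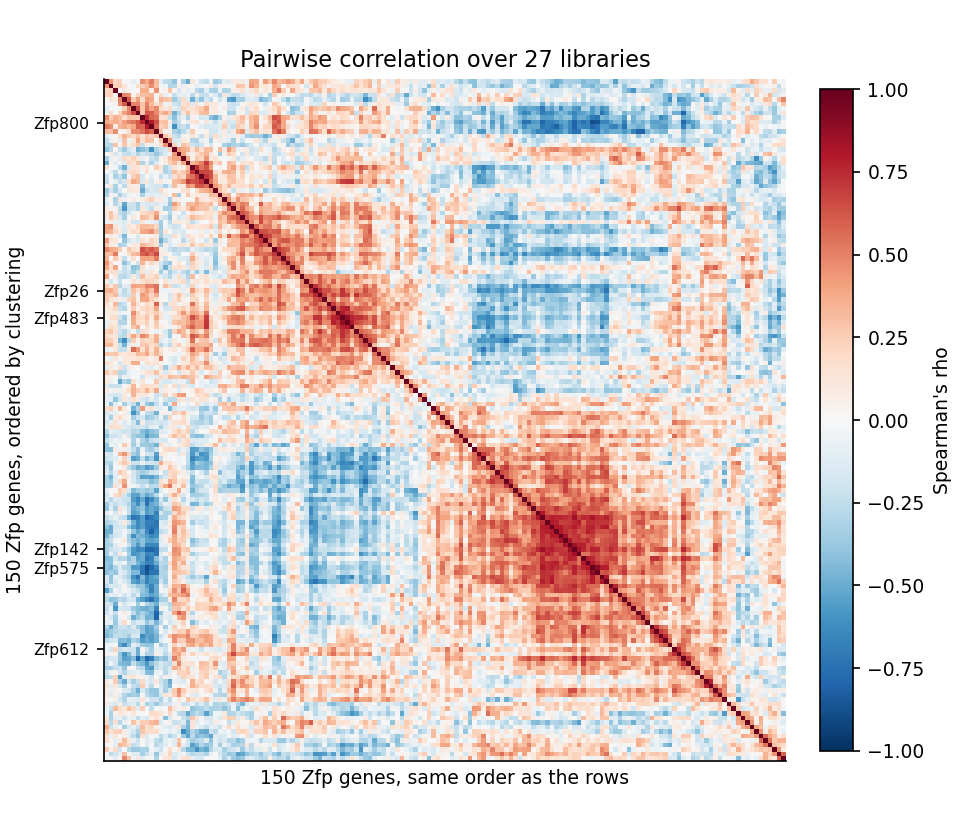
Spearman's rho over 27 libraries for every pair of the 150 Zfp genes, red for positive and blue for negative, with rows and columns in the same order by average-linkage clustering. A larger red square holds Zfp142 and Zfp575 and a smaller one Zfp26 and Zfp483, and the median of all pairs is 0.046.

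Members differed widely in how many others they resembled. Zfp142 and Zfp61 each had 36 members at a rho over 0.5, more than any other before block means were removed, and Zfp142 had 9 at a rho under -0.5. Of the 36 partners of Zfp142, 20 were called higher from 32 and none lower, and of the 9 opposed members 4 were called lower. Zfp142 was itself higher from 32 and its partners were chosen by rho across both blocks, so these counts follow in part from the choice and are not read against the backgrounds of 8.85% and 9.18%. With block means removed, Zfp142 had 22 members at a rho over 0.5 and 4 under -0.5, and Zfp61 had 18 over 0.5, fewer than Zfp597 and Zfp638 (21 each). At the other end Zfp207 and Zfp800 each had 31 members at a rho under -0.5 and 7 over 0.5. With block means removed 19 were under -0.5 for Zfp207 and 3 for Zfp800. The median promoter GC content was 59.7% over the 31 partners of Zfp142 with a promoter, and 58.3% over all 125 members with one. Taking each member's median rho to the rest, Zfp612 stood closest to the family (0.22) and Zfp958 next (0.19), whereas Zfp706 (-0.18), Zfp207 (-0.14) and Zfp36 (-0.12) stood farthest. For 8 members no rho passed 0.5 in either direction.

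The most alike pair was Zfp575 and Zfp467, with a rho of 0.893 over all rats, 0.803 within the libraries up to 31 and 0.664 within those from 32. They lie on chromosomes 1 and 4, and their printed promoters share none of the marked letters. Both were highest in library 32, at 349 and 214 normalized counts, where Zfp800 was at 42.1. Zfp800, also on chromosome 4, opposed both of them, at a rho of -0.885 with Zfp575 and -0.861 with Zfp467. Within the blocks the rho of Zfp575 and Zfp800 was -0.647 and -0.755. Next came Zfp597 and Zfp483 (0.889, and 0.882 and 0.836 within blocks) and Zfp61 and Zfp142 (0.852, and 0.712 and 0.745). Without libraries 12 and 20 the rho of Zfp575 and Zfp467 was 0.876, that of Zfp597 and Zfp483 also 0.876, and that of Zfp575 and Zfp800 -0.902.

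**Figure D4:**
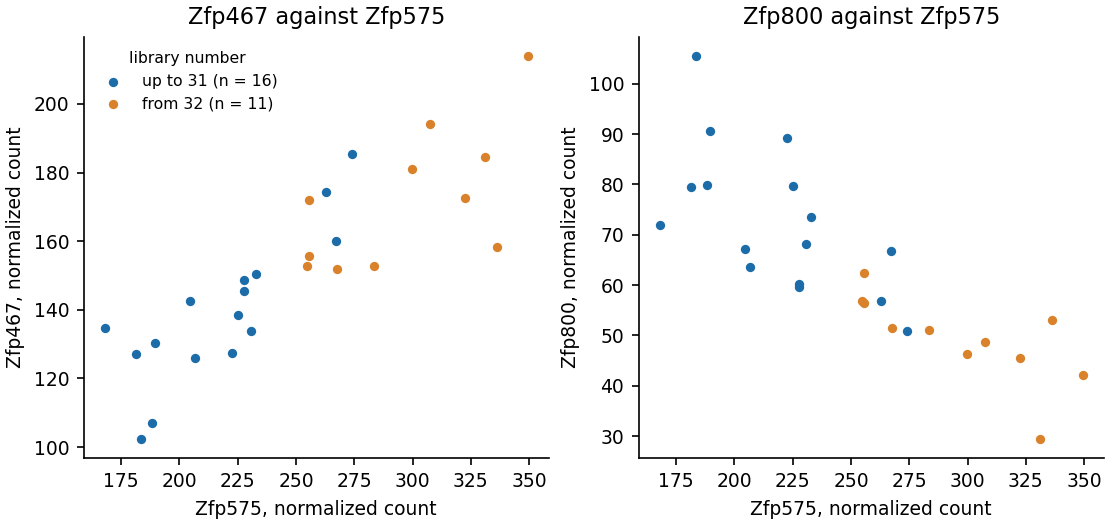
Normalized counts of Zfp467 (left) and Zfp800 (right) against those of Zfp575, a point per rat, blue for the 16 libraries up to 31 and orange for the 11 from 32. Zfp467 climbs with Zfp575 (rho 0.893) and Zfp800 declines (rho -0.885), in both blocks.

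Neighbours in the genome had a higher median rho than all member pairs, by less once block means were removed. Of the 150 members, 39 lie on chromosome 1, 18 on chromosome 10 and 14 on chromosome 4. Adjacent members with no protein-coding gene between them formed 16 pairs, with a median rho of 0.18 and a range of -0.45 to 0.51, and 11 of the 16 were positive. After block means were removed their median was 0.042, against 0.035 for all member pairs. The 44 pairs with at most 5 protein-coding genes between them had a median of 0.178, and 0.124 with block means removed. The closest in expression were Zfp583 and Zfp667 (0.51) among the 16 adjacent pairs, and Zfp84 and Zfp74 (0.66) among the 44. In both sets Zfp26 and its neighbour Zfp426 were the most opposed.

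Zfp26 ranged from 131 to 232 normalized counts (median 157) in the libraries up to 31 and from 112 to 184 (median 144) in those from 32. The blocks overlapped, and the difference did not pass (log2 fold change -0.14, SE 0.08, edgeR adjusted p = 0.236). Library 15 was highest with 221 reads, or 232 normalized counts, and library 32 lowest with 160 reads, or 112. Its SD between rats, 0.21 on the log2 scale, was the 54th of 150 and counting alone accounted for 27.3% of the variance. Its median rho to the other members was -0.018, the 123rd of 150, and 0.062 with block means removed. It had 16 members at a rho over 0.5 and 17 under -0.5, and 16 and 10 with block means removed.

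In a permutation test of Spearman's rho (100000 permutations, two-sided, Benjamini-Hochberg over 11729 genes), 32 of the 149 other members (21.5%) were correlated with Zfp26, 16 positively and 16 negatively, against 14.9% of all genes. The count depended on a pair of libraries. Without libraries 12 and 20, 9 members (6.04%) and 5.17% of all genes passed. Without library 3, 36 members (24.2%) passed, 10 positively and 26 negatively, against 16.8% of all genes. Pearson's r on the log2 values called 20 members (13.4%), against 10.0% of all genes, and with block means removed rho called 23 (15.4%), against 14.6%. Among the 45 related zinc finger genes 16 passed, against 10 with block means removed and 12 by Pearson's r.

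Zfp266, which follows Zfp426 on chromosome 8, was the member most alike to Zfp26. Its lowest value was 753 normalized counts in library 32, where Zfp26 was lowest too, its median 1000 and its highest 1194. Its rho with Zfp26 was 0.754 (permutation p = 2e-05, adjusted p = 0.0016), and Pearson's r was 0.717 (permutation p = 3e-05, adjusted p = 0.00309). Without libraries 15 and 32, the farthest from the median of Zfp26, r was 0.657. Within blocks rho was 0.788 and 0.618, and without libraries 12 and 20 it was 0.751. Zfp426, which lies between these genes, went the other way, at a rho of -0.454 that did not pass (permutation p = 0.0186, adjusted p = 0.0874). With block means removed it was -0.302, and without library 3 it was -0.608 and passed. Zfp846, on the far side of Zfp266, had a rho of 0.026 (0.190 with block means removed). In the printed promoters, the CRE is shared by Zfp266 and Zfp426 and absent from Zfp26. The rho of Zfp266 and Zfp426 was -0.181, and -0.0085 with block means removed.

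**Figure D5:**
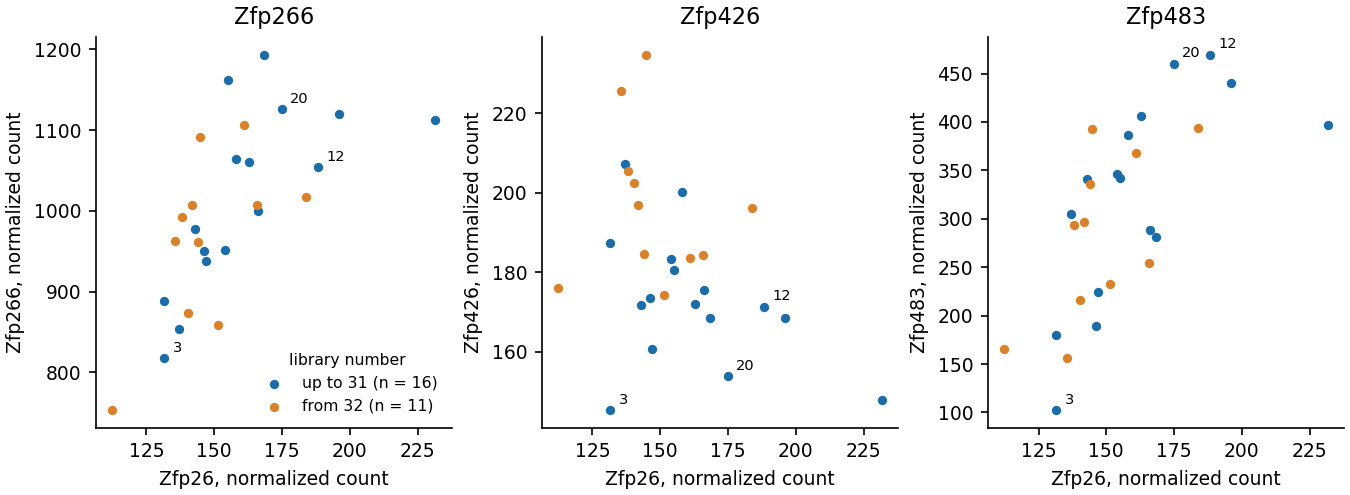
Normalized counts of Zfp266, Zfp426 and Zfp483 against those of Zfp26, a point per rat, blue for the 16 libraries up to 31 and orange for the 11 from 32, with libraries 3, 12 and 20 numbered. Zfp266 and Zfp483 climb with Zfp26 (rho 0.754 and 0.726), and Zfp426 does not (rho -0.454).

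After Zfp266 came Zfp35 (rho 0.727), Zfp483 (0.726), Zfp655 (0.651) and Zfp397 (0.644), all of which passed. With block means removed these were 0.685, 0.714, 0.619 and 0.624, and Zfp655 was at 0.409 within the libraries from 32. Zfp35 and Zfp397 are near neighbours on chromosome 18, with 1 protein-coding gene between them, and had a rho of 0.559 with each other (0.635 with block means removed). The most opposed members were Zfp523 (-0.731), Zfp428 (-0.645) and Zfp639 (-0.642, and -0.364 within the libraries from 32). Zfp523 had 740 ± 85.7 normalized counts and kept a negative rho of -0.712 and -0.745 within blocks. Over genes of any name the 5 highest values of rho with Zfp26 were those of Pank3 (0.882), Crebrf (0.861), Lrp1b (0.861), Ddx3y (0.849) and Osbpl8 (0.847), each over 27 rats and each at the smallest p that 100000 permutations can give (1e-05). With block means removed their rho lay between 0.774 and 0.890. At the negative end stood Zfp385a, a relative with a letter after its number that stands in the RNA and ribosome list and was singled out after its value was seen. Its rho of -0.824 was the lowest of all 11729 genes. With block means removed it was -0.783 and no longer the lowest, which was then -0.842.

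The slope on Zfp26 was also fitted in edgeR with the block as a covariate, per SD of its log2 values. It called 12 of 149 members (8.05%), against 9.7% of 12026 genes. Of these 8 rose with Zfp26 (background 6.18%) and 4 fell (background 3.52%). Without the block in the fit 13 members rose and 9 fell, against 903 and 400 of 12026 genes. Without libraries 12 and 20, 3 members and 387 of 12136 genes were called, and the members were Zfp483 (log2 slope 0.35, SE 0.08, edgeR adjusted p = 0.00557 over all libraries), Zfp397 (0.24, SE 0.06, adjusted p = 0.0129) and Zfp266 (0.12, SE 0.02, adjusted p = 0.0037). Each of them was also called in all 27 fits that left a library out. Without library 24, 5 members and 659 of 12112 genes were called. Zfp36 was lower where Zfp26 was higher (-0.28, SE 0.08), a call lost without the block and without libraries 12 and 20. Of the 21 corepressor and heterochromatin genes only Suv39h2, a histone methyltransferase, passed (0.14, SE 0.04, edgeR adjusted p = 0.0425). No gene of that list was called higher without a filter on low counts, without libraries 12 and 20 or in most fits that left a library out. Trim28 (-0.0077) and Setdb1 (0.00010) did not.

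The slope on Zfp26 was not shown to differ between the blocks. The edgeR test of the interaction called no member and 0% of 12218 genes, and 5 members had an unadjusted p under 0.05. Zfp36 was among them, and its rho with Zfp26 was -0.803 up to 31 and 0.255 from 32 (interaction 0.48, SE 0.14, edgeR adjusted p = 0.434). No marker score followed Zfp26 closely, with rho between -0.154 and 0.106 over the 9 scores.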

How the data were processed

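RNA from the mPFC of 27 rats was sequenced, and the authors deposited raw counts per gene for each library. Per the labels and the submitters' processing notes, reads were trimmed with Trimmomatic, aligned with STAR and counted with HTSeq; versions, genome build and strandedness are not given in the sources used here. The labels name a TruSeq kit and a thinner tissue section, whereas the study's methods name a NEBNext kit, and the difference was not resolved.

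Gene symbols were taken from the RefSeq list for the NCBI gene IDs of the table. Counts were tested with edgeR 4.0.16 (quasi-likelihood test, R 4.3.3) across all genes that passed its filter, with Benjamini-Hochberg adjustment at 0.05, between library blocks and for slopes on Zfp26 and marker scores with the block as a covariate. DESeq2 1.42.0 was an alternative. Spearman's rho and Pearson's r used log2(normalized count + 1) and 100000 permutations (numpy 2.4.6, scipy 1.17.1). The p-values of the edgeR, DESeq2 and permutation tests rest on the spread between rats, with 1 library per rat. Those of the dispersion test set that spread, library preparation included, against counting error alone. A count of 0 allows up to 3 reads, for counting error only.

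Named were Zfp26, the role lists, the 5 highest and 5 lowest members in level and in spread, the 5 largest block changes in each direction, the 5 highest and 3 lowest values of rho with Zfp26, up to 3 members called for each score in each direction, the members and rows next to the selection limit, and the 5 genes of any name most alike to Zfp26, with Trim28 and Setdb1. The other members called with Zfp26, the extreme and neighbouring pairs, the members with most partners, Suv39h2, Mta1, Hdac2 and Rbbp7 were chosen after their values were seen. The members and lists were chosen with earlier results of these data known. In simulated data with 200 genes changed by 0.5 on the log2 scale, the block test recovered 168 with 11 false calls over 11684 genes, and the Zfp26 test recovered 197 with 12 false calls over 11716 genes. The member slopes on Zfp26 given above were smaller than 0.5, as were most block changes. Recovery at those sizes was not simulated. Alternatives were another scaling, no filter, no block, an oligodendrocyte covariate, a mean count of at least 50, symbols with letters and each library left out. Leaving out libraries 12 and 20 was planned for the edgeR tests of the blocks and of Zfp26. For spread and correlation it was chosen after seeing the data, as were leaving out library 3 (other than as a library left out in turn), the correlations within each block and Pearson's r.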

Additional observations from a re-analysis of the deposited data

How the results depend on the processing

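No called member changed direction under any alternative run. Of the counts and medians that answer a comparison, 165 values under alternatives stayed within 1.5 times the reported value or its spread, and 14 moved. For single members, 1192 values stayed on the same side of the threshold and 104 lost their call. Medians near 0 changed sign: the members' median slope on Zfp26 was 0.0080 and -0.0011 without the block, and that on the oligodendrocyte score was -0.014 and 0.0063 without library 3. The number of members whose slope on Zfp26 was called (12 with the block) was 22 without the block and 3 without libraries 12 and 20, and ranged from 5 to 16 with each library left out, with 5 without library 24. Over all genes the number (1166) was 387 without libraries 12 and 20 and ranged from 620 to 1554 with each library left out, with 620 without library 12, 659 without library 24, 679 without library 13 and 747 without library 3. For the oligodendrocyte score, the number of members (1) was 0 without the block and 0 without library 3, and that of all genes (397) was 182 and 180. Members correlated with Zfp26 (32 by rho) numbered 20 by Pearson's r and 9 without libraries 12 and 20. The causes were not tested. Members called between the blocks ranged from 25 to 36 with each library left out. No paired analysis was possible because all libraries belong to 1 group and each is a different rat. Depth and library block cannot be told apart, and low members such as Zfp819 and Zfp93 are limited by counting error.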
